A study of Mus musculus with 24 samples.

Results

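Mouse macrophages grown from induced pluripotent stem cells (iPSC-derived macrophages) were compared after 3 days of co-culture with the same kind of cells at day 0, before any co-culture. The comparison takes the 3 libraries labelled as iPSC-derived, co-cultured and day 3, and sets them against the 3 labelled as iPSC-derived, not co-cultured and day 0. These are 6 of the 24 RNA-seq libraries of the series, which also holds iPSC-derived cells at days 6 and 12 and bone marrow-derived macrophages at the same days. The series' design text calls the 3 libraries of a group independent replicates and says that the day 0 cells came from the same batch. No label says which cells the macrophages were co-cultured with, how the macrophages were recovered from them, or which iPSC line was used. Day 3 differs from day 0 in both time and co-culture, and the effects of the 2 cannot be told apart in these samples. The labels name no allele, strain or drug for either group.

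Macrophages are phagocytes that take on different programmes in different tissues. Microglia, the macrophages of the brain, depend on signals from their surroundings, among them ligands of the CSF1 receptor and TGF-beta, and lose much of their characteristic gene expression when they are taken out of the brain. Macrophages that engulf dying cells have to store or export the lipid they take up, for which the liver X receptors (LXR) switch on transporters and lipid carriers. Activated or stressed macrophages instead raise glycolysis, inflammatory cytokines and, when amino acids or protein folding are limiting, the targets of the transcription factor ATF4.

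The 6 libraries held 8831070 to 10799515 counts. Between 16395 and 17287 genes had a count in the day 3 libraries, against 15676 to 15907 in the day 0 libraries. Levels are CPM, counts relative to the library total scaled by trimmed mean of M values, and levels of different genes are compared only as TPM, which also corrects for gene length. Replicate 3 stood apart in both groups. The chi-square per degree of freedom between replicates 1 and 2 was 13.2 at day 3 and 19 at day 0, against 38 to 58.2 for pairs that include a replicate 3. Counts of changed genes are therefore also given without both replicates 3.

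Defining macrophage genes matched the label. Adgre1, which encodes the F4/80 antigen, had 1882, 1585 and 1321 CPM at day 3 and 701, 632 and 738 CPM at day 0. Csf1r, the receptor for CSF1 and IL-34, had 4435, 4754 and 2744 CPM at day 3 and 1609, 1515 and 976 CPM at day 0. Both rose, and the groups did not overlap for either gene. Of all 13530 tested genes, 34.4% (4655) had no overlap between the groups. Cd68, a lysosomal glycoprotein of macrophages, had 2047, 2126 and 2436 CPM at day 3, against 1832, 1847 and 2101 CPM at day 0, and did not pass the test (adjusted p = 0.6). Pluripotency genes were near 0: Pou5f1, which encodes OCT4, had 2.27, 3.53 and 2.59 CPM at day 3 and 1.58, 0.424 and 0.824 CPM at day 0, and Nanog had counts in only 1 of the 6 libraries.

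Markers of other cells moved with day 3 at low levels. Their counts stand beside 8.03% of all tested genes called higher and 5.6% called lower. Of 18 tested neuron markers, 9 were called higher and 1 lower (none lower without day 3 replicate 1), and their summed level was 293, 324 and 279 CPM at day 3, against 91.2, 124 and 113 CPM at day 0. Dcx, a microtubule protein of young neurons, had 3.94, 4.33 and 7.31 CPM at day 3 and no count at day 0. Nefh, Slc17a6 and Slc32a1 were at 0 in all 3 day 3 libraries.

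Of 17 tested astrocyte and neural progenitor markers, 8 were called higher and 3 lower. Their sum without Vim was 165, 219 and 152 CPM at day 3 and 203, 217 and 328 CPM at day 0. Slc1a3, a glial glutamate transporter, had 6.9, 6.5 and 6.41 CPM at day 3 and 0.845, 0.742 and 0 CPM at day 0. Aqp4, Mog, Cldn5, Tek and Cd3e, which mark astrocytes, oligodendrocytes, endothelium and T cells, were at 0 in all day 3 libraries. The part of RNA from other cells in the results was not tested. In bulk RNA, fewer cells of a type and less RNA per cell cannot be told apart.

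The first question is how many genes changed. Of 13530 tested genes, 1844 (13.6%) passed an adjusted p of 0.05 in edgeR's quasi-likelihood test. Of all tested genes, 8.03% (1086) were called higher at day 3 and 5.6% (758) lower. The median log2 fold change was 1.46 among the rises and -1.15 among the falls, against 0.01 over all tested genes. Without both replicates 3 the counts were 844 higher and 542 lower, and 1179 of the 1844 genes were called again. Without scaling factors 792 genes were higher and 1248 lower, so that rises made up 38.8% of the calls in place of 58.9%, and the median over all genes moved to -0.18. Leaving out day 0 replicate 1 gave 1217 calls, day 0 replicate 2 gave 1156 and day 3 replicate 1 gave 1185. Without day 3 replicate 2 the lower calls numbered 481.

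The rises were larger than the falls at the far end: 259 genes rose and 61 fell by more than 3 log2 units. Genes called higher held 35.7%, 36.8% and 34.2% of all counts at day 3, against 15.7%, 14.7% and 16.8% at day 0. Genes called lower held 5.37%, 5.49% and 5.34% of the counts at day 3 and 15.5%, 15% and 13.2% at day 0. There were 33 genes with at least 1 CPM in every day 3 library and no count at day 0, and 6 genes with the reverse pattern. The 33 included Vnn3, described below, at a mean of 22.4 CPM at day 3, and the neuron marker Dcx, at 5.2 CPM. Which of the 33 come from other cells was not tested. On the first principal component of the 12 iPSC-derived libraries (34.0% of the variance), day 3 lay at -3.3 to -7.8, day 0 at 81.9 to 99.3 and days 6 and 12 at -36.4 to -50.4.

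**Figure D1:**
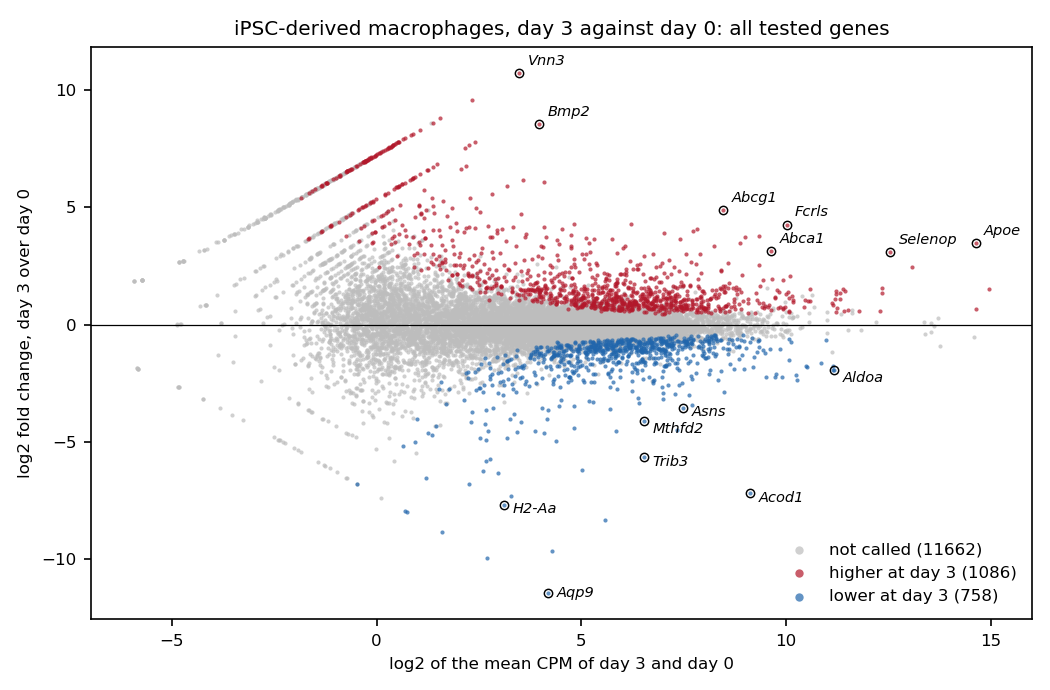
Each point is 1 tested gene, with the log2 of its mean CPM over the day 3 and day 0 means on the x axis and its log2 fold change (day 3 over day 0) on the y axis. Red marks the 1086 genes called higher and blue the 758 called lower, the slanted lines at low levels are genes with 0 or few counts in 1 group, and 24 tested genes with no count in these 6 libraries are not drawn.

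Apoe, which encodes a lipid carrier, had the highest TPM of all tested genes at day 3 and stood at rank 15 at day 0. It lies at 7:19696109-19699188 (GRCm38) and had 42131, 50479 and 47373 CPM at day 3 and 3761, 4025 and 4631 CPM at day 0. Another abundant gene that rose was Ctsd, a lysosomal protease, with a mean of 48365 TPM at day 3 and 18923 TPM at day 0. Selenop, which encodes a secreted selenium carrier, averaged 9756 TPM at day 3 and 1268 TPM at day 0, and Itm2b, a membrane protein, averaged 11309 TPM at day 3 and 4273 TPM at day 0. Apoe rose by 3.49 ± 0.27 log2 units (SE; adjusted p = 2.6e-06) and Selenop by 3.09 ± 0.29 (adjusted p = 1.4e-05).

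Among genes abundant at day 0, Acod1 fell, with a mean of 7.47 TPM at day 3 and 1216 TPM at day 0. Sqstm1, the autophagy receptor p62, averaged 719 TPM at day 3 and 3101 TPM at day 0, and its libraries held 915, 845 and 1071 CPM at day 3 and 4568, 4257 and 2008 CPM at day 0. The glycolytic enzyme genes Pkm, Aldoa and Ldha and the actin-capping gene Capg were in the same set. Pkm averaged 901 TPM at day 3 and 3119 TPM at day 0, and Capg 345 TPM at day 3 and 1796 TPM at day 0. All of these fell, and none of them overlapped between the groups. Only 27 of the 1844 called genes did overlap, so a lack of overlap adds little for a called gene.

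By fitted fold change, Vnn3, a gene of the vanin family of pantetheinases, led the rises. It had 28.7, 30.6 and 7.87 CPM at day 3 and no count at day 0, so that it was at least 216-fold higher, against a floor of 3 counts over the day 0 libraries. Bmp2, which encodes a secreted ligand of the BMP family, had 884 counts at day 3 and 2 at day 0, a ratio of 455 (exact 95% interval for counting error 126 to 3761). Hpgd, which encodes the enzyme that inactivates prostaglandins, had 148, 187 and 88.9 CPM at day 3 and 5.81, 9.22 and 6.6 CPM at day 0. Kynu, an enzyme of tryptophan breakdown, had 33, 43.7 and 19.3 CPM at day 3 and 0.528, 2.44 and 2.37 CPM at day 0. For all 4 genes day 3 replicate 3 was the lowest of the day 3 libraries. That it lay above every day 0 library was set by the choice, which took only genes with no overlap.

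Aqp9, a channel for water and glycerol, led the falls. It had no count at day 3 and 50.4, 39.5 and 20.1 CPM at day 0, and was at least 339-fold lower against the same floor over the day 3 libraries. Tnfsf9, which encodes the ligand of the T cell receptor 4-1BB, had 1.18, 1.6 and 0.787 CPM at day 3 and 24.2, 31.1 and 27.9 CPM at day 0. Car6, a carbonic anhydrase, had 0.887, 1.03 and 0.675 CPM at day 3 and 31.5, 26.4 and 4.23 CPM at day 0. Of the other genes chosen by the size of their change, Cdo1 (6.17), Npnt (6.07), Spsb1 (4.29), Clec4e (-6.19), Chac1 (-4.96), Cadps (-4.62), Ccl2 (-4.54) and Gem (-4.42) had fold changes (given here as log2) that moved by more than 1.5 times without 1 library, or lost their call. They were 7.15 for Cdo1 and 4.91 for Spsb1 without day 0 replicate 1, and 6.7 for Npnt and -2.63 for Ccl2 without day 0 replicate 3. Without day 3 replicate 3 they were -7.22 for Clec4e, -6.21 for Chac1, -5.9 for Cadps and -5.13 for Gem. Cadps did not pass without day 3 replicate 1 (adjusted p = 0.059) or replicate 2 (0.052).

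Gene lists were counted next, each beside the 8.03% of all tested genes called higher and the 5.6% called lower. The lists and the genes in them were chosen with earlier results of these data known, so their counts describe the lists and are no independent support. Where a count given here moved by more than 1.5 times without 1 library, that library is named.

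**Figure D2:**
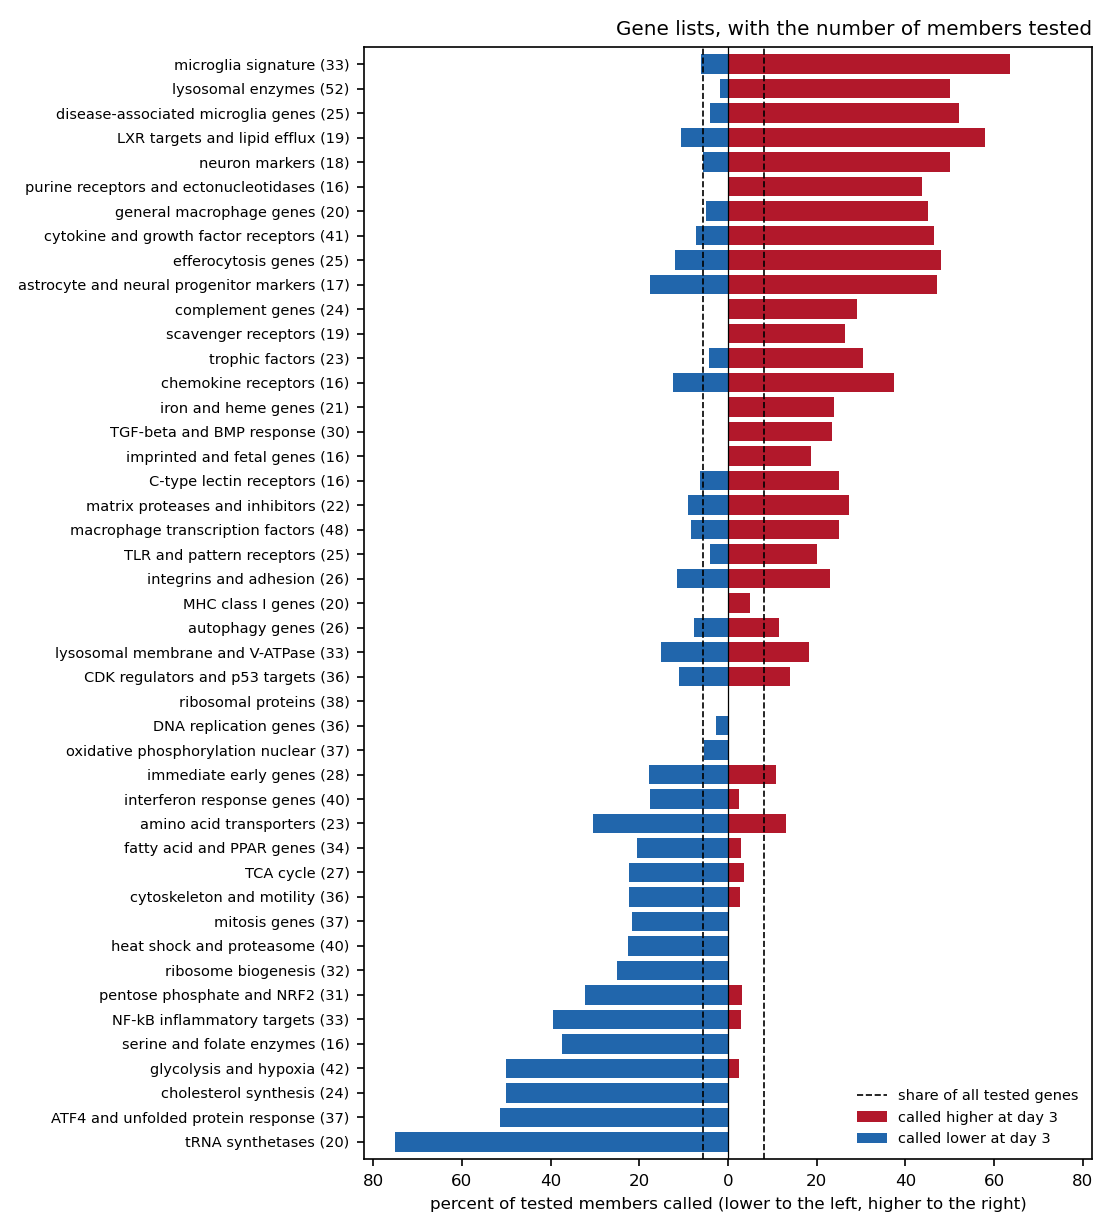
Bars give the percent of each list's tested members (their number in brackets) called higher at day 3, to the right, and called lower, to the left, for the 45 lists with at least 15 tested members. Dashed lines mark the shares of all tested genes, 8.03% and 5.6%, and the list of tRNA synthetases reaches furthest to the left and the microglia signature furthest to the right.

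Genes of the microglial signature rose as a group. Of 33 tested members, 21 were called higher and 2 lower, and the median log2 fold change was 1.54. The count of rises was 17 to 22 with any 1 library left out and 15 without both replicates 3. Slco2b1, an organic anion transporter, had 390, 438 and 369 CPM at day 3 and 16.2, 29.6 and 28.8 CPM at day 0. Mef2c, a transcription factor of the myocyte enhancer family, had 525, 592 and 586 CPM at day 3 and 97.1, 102 and 136 CPM at day 0 (2.34 ± 0.17 log2 units, adjusted p = 1.6e-06). In neither of these did the groups overlap.

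The 2 members that fell were Jun and Gpr84. Jun, an AP-1 transcription factor, had 71, 61.6 and 51 CPM at day 3 and 235, 268 and 118 CPM at day 0. Gpr84, a receptor for medium-chain fatty acids, had 14.8, 22.5 and 6.75 CPM at day 3 and 64.3, 85.8 and 40.8 CPM at day 0. Plxdc2, a plexin-domain membrane protein that is not on the list, had 405, 569 and 322 CPM at day 3 and 27.1, 34.6 and 14.1 CPM at day 0, among the 12 rises chosen by size. Among general macrophage genes, 9 of 20 were called higher, and Cd81, a tetraspanin, was called lower with 300, 345 and 216 CPM at day 3 and 752, 758 and 567 CPM at day 0.

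Of 48 tested transcription factors of macrophages, 12 were called higher and 4 lower, with 7 higher without day 0 replicate 1 or without day 3 replicate 2. Irf8, a factor required for the monocyte and microglial lineage, had 666, 666 and 658 CPM at day 3 and 201, 206 and 242 CPM at day 0, a tight group on each side. Mitf, a relative of the lysosomal regulator TFEB, had 63.6, 65.1 and 73.5 CPM at day 3 and 24.5, 22.4 and 21.8 CPM at day 0. The falls included Ets2, with 29.8, 36.7 and 22.9 CPM at day 3 and 95.5, 101 and 72.4 CPM at day 0. Myc, which drives growth, had 13.2, 21.7 and 10.8 CPM at day 3 and 78.4, 73.7 and 43.2 CPM at day 0. Spi1, which encodes the lineage factor PU.1, had 330, 357 and 103 CPM at day 3 and 173, 412 and 347 CPM at day 0, with groups that overlap.

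Receptors for cytokines and growth factors made up another group of rises, with 19 of 41 tested members called higher (18 to 20 with any 1 library left out) and 3 lower. The lower count was 1 without day 0 replicate 1, day 0 replicate 2, day 3 replicate 1 or day 3 replicate 2. Tnfrsf1b, the TNF receptor TNFR2, had 1069, 1078 and 840 CPM at day 3 and 407, 319 and 223 CPM at day 0. Ifngr1, a chain of the interferon-gamma receptor, had 582, 624 and 529 CPM at day 3 and 219, 183 and 188 CPM at day 0. Il6ra, which binds interleukin-6, had 174, 158 and 111 CPM at day 3 and 51.5, 60 and 36 CPM at day 0. Il2rg, the common gamma chain, went the other way, with 48.6, 54.7 and 36.8 CPM at day 3 and 142, 162 and 114 CPM at day 0.

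In the TGF-beta and BMP list, 7 of 30 tested members were called higher by edgeR and none lower, against 2 lower at an unadjusted p below 0.05 and 1 lower by DESeq2. By edgeR 2 were lower without day 0 replicate 3 and 1 without day 3 replicate 2. Tgfbr1, the type I TGF-beta receptor, had 378, 371 and 310 CPM at day 3 and 129, 91.9 and 111 CPM at day 0 (1.67 ± 0.18 log2 units, adjusted p = 3.6e-05). Itgb5, an integrin subunit that pairs with the alpha-v chain, had 176, 130 and 199 CPM at day 3 and 32.7, 38.6 and 53.6 CPM at day 0. Bmp2, given above, was the ligand on this list that rose.

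**Figure D3:**
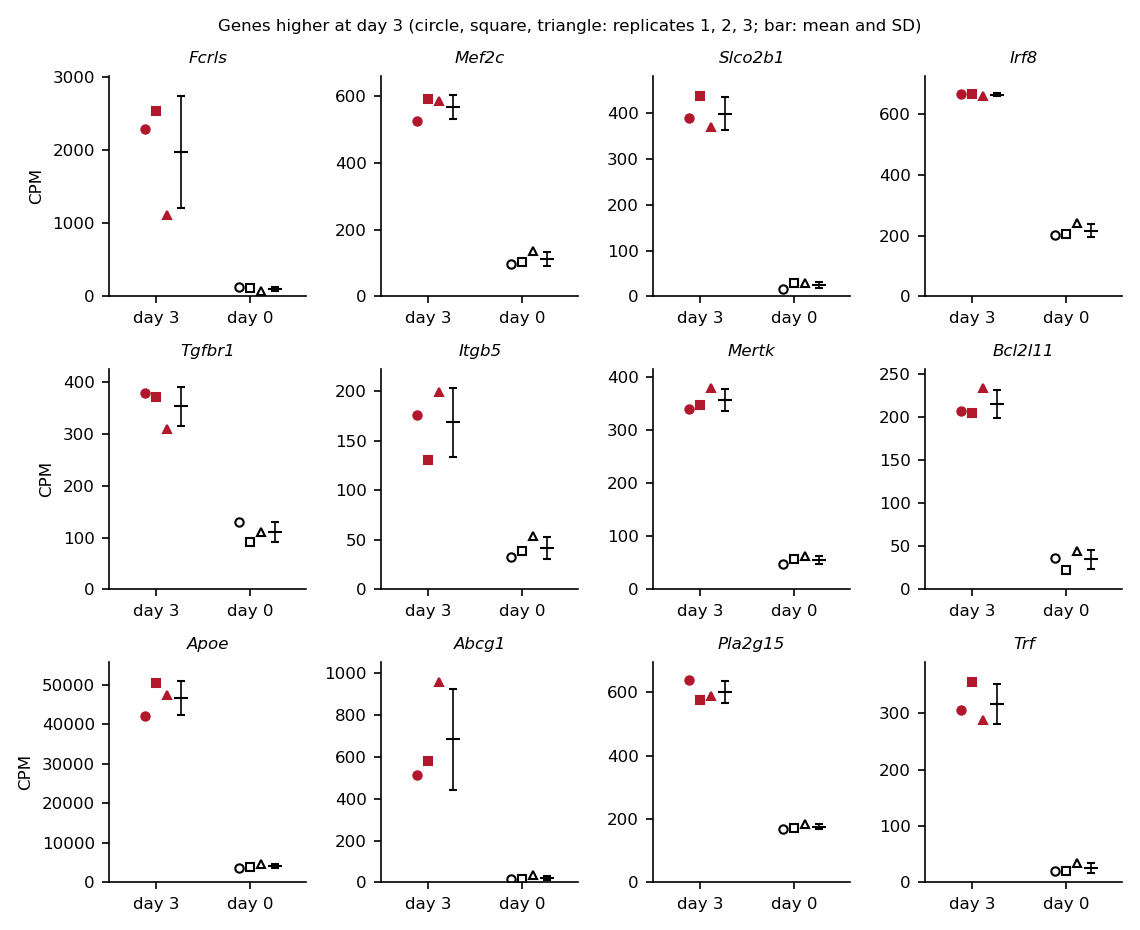
Each panel shows 1 gene that rose, with CPM on a linear y axis from 0 and the 3 day 3 libraries (filled) left of the 3 day 0 libraries (open); bars give the mean and SD. In all 12 panels, which were chosen after their values were seen, the lowest day 3 library lies above the highest day 0 library, and for Fcrls day 3 replicate 3 lies well under the other two.

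Genes for the uptake of dead cells (efferocytosis) rose in 12 of 25 tested cases and fell in 3. Mertk, a receptor tyrosine kinase that binds bridging proteins on dying cells, had 341, 348 and 380 CPM at day 3 and 48.3, 56.7 and 62.3 CPM at day 0. Stab1, a scavenger receptor, had 1683, 1406 and 1523 CPM at day 3 and 296, 363 and 581 CPM at day 0. Lrp1, a large endocytic receptor, had 810, 962 and 966 CPM at day 3 and 396, 441 and 621 CPM at day 0. The falls included Itgb3, an integrin subunit, with 34.7, 29.6 and 17 CPM at day 3 and 93.9, 91.2 and 62.7 CPM at day 0, a call lost when all 24 libraries were fitted (adjusted p = 0.13). Cd300lf, a phospholipid-binding receptor, had 37.5, 53.4 and 14.1 CPM at day 3 and 197, 172 and 127 CPM at day 0.

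Of 24 tested complement genes, 7 were called higher, with 4 without day 0 replicate 2 or without day 3 replicate 2. C1qb, a subunit of the first component C1q, had 3046, 3136 and 4041 CPM at day 3 and 1233, 1314 and 1561 CPM at day 0, while C1qc had 2327, 2536 and 828 CPM at day 3, overlapping 363, 1017 and 1021 CPM at day 0. Among Fc receptors 4 of 8 were called higher. Fcgrt, the neonatal receptor that recycles IgG, had 426, 408 and 369 CPM at day 3 and 80.2, 93.1 and 89.2 CPM at day 0, and Fcgr2b, the inhibitory IgG receptor, had 343, 333 and 168 CPM at day 3 and 108, 93.3 and 112 CPM at day 0.

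Purine receptors and ectonucleotidases were called higher in 7 of 16 tested cases. That count was 4 without day 0 replicate 2, day 3 replicate 1 or day 3 replicate 2, and 3 without day 0 replicate 3. P2ry6, a UDP receptor, had 370, 408 and 326 CPM at day 3 and 116, 126 and 194 CPM at day 0. Entpd1, which encodes the ATP-degrading enzyme CD39, had 524, 465 and 406 CPM at day 3 and 176, 175 and 219 CPM at day 0. Of 25 tested pattern receptors and adaptors, 5 were called higher and 1 lower (2 without day 0 replicate 3), with a median of 0.09 log2 units that became -0.10 without scaling factors. The rises included Tlr7, a sensor of single-stranded RNA, and Tlr1, a sensor of lipopeptides. Tlr7 had 319, 259 and 218 CPM at day 3 and 117, 113 and 141 CPM at day 0, and Tlr1 had 111, 92.6 and 60.7 CPM at day 3 and 30.7, 27.9 and 36.5 CPM at day 0.

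Lipid genes split by role. Of 19 tested LXR targets and lipid efflux genes, 11 were called higher (8 to 11 with any 1 library left out) and 2 lower, with a median of 1.90 log2 units. Abcg1, a transporter that exports cholesterol to lipoproteins, had 513, 580 and 959 CPM at day 3 and 18.5, 16.5 and 34.4 CPM at day 0 (4.88 ± 0.47 log2 units, adjusted p = 4.6e-05). Mylip, a ubiquitin ligase, had 254, 307 and 358 CPM at day 3 and 78.6, 50.6 and 75 CPM at day 0. Scd1, among the falls, encodes a desaturase of fatty acid synthesis. It had 11.9, 7.53 and 6.86 CPM at day 3 and 40.9, 28.4 and 64.9 CPM at day 0, with no overlap.

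Of 24 tested cholesterol synthesis genes, 12 fell (9 to 13 with any 1 library left out, 8 without both replicates 3, 18 without scaling factors) and none rose in edgeR, at an unadjusted p below 0.05 or in DESeq2. All 24 fitted changes were negative, with a median of -1.20. Lss, which closes the sterol ring, had 22.3, 28.2 and 22.9 CPM at day 3 and 59.6, 63.5 and 81.7 CPM at day 0. Mvd, an enzyme of the mevalonate pathway, had 26.1, 27.1 and 15.3 CPM at day 3 and 68.9, 69.3 and 118 CPM at day 0. In fatty acid metabolism 7 of 34 tested genes fell and 1 rose, with 4 falls without day 0 replicate 2 or day 3 replicate 1 and 2 rises without day 0 replicate 3. Elovl6, an elongase, had 6.8, 2.62 and 4.05 CPM at day 3 and 18.1, 21.5 and 35.8 CPM at day 0. The lipid droplet genes Hilpda and Plin3 fell too, Hilpda with 12.4, 10.9 and 10.3 CPM at day 3 and 57.4, 53.6 and 25.7 CPM at day 0. Pdk4, a kinase that restrains pyruvate oxidation, had 49 counts at day 3 and none at day 0, at least 16.8-fold higher.

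Lysosomal enzyme genes rose in large number. Of 52 tested, 26 were called higher (20 to 26 with any 1 library left out, 19 without scaling factors), with a median of 0.61 log2 units. Neu1, a sialidase, was the 1 call lower, and it did not pass without day 0 replicate 1 or 2 (adjusted p = 0.067 and 0.086) or without day 3 replicate 1 or 3 (0.051 each). The summed level of all 52 was 132693, 138589 and 129597 CPM at day 3 and 67314, 64073 and 73587 CPM at day 0. A few abundant genes weigh most in this sum. Ctsd alone had 45171, 48945 and 48113 CPM at day 3 and 15071, 14013 and 20870 CPM at day 0. Pla2g15, a lysosomal phospholipase, had 640, 576 and 587 CPM at day 3 and 170, 171 and 184 CPM at day 0. Ctss, a protease active in antigen processing, had 3951, 4127 and 4036 CPM at day 3 and 1497, 1378 and 1621 CPM at day 0. Both genes varied little among the libraries of a group.

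Proteins of the lysosomal membrane and its proton pump did not move one way. Of 33 tested, 6 were called higher and 5 lower, with a median of 0.08 log2 units that became -0.11 without scaling factors. The higher count was 3 without day 0 replicate 2 or day 3 replicate 2. The lower count was 2 without day 0 replicate 1 or day 3 replicate 2, and 3 without day 0 replicate 2 or day 3 replicate 1. Scarb2, a membrane carrier of lysosomal glucocerebrosidase, had 345, 377 and 311 CPM at day 3 and 153, 117 and 166 CPM at day 0. Clcn7, a lysosomal chloride and proton exchanger, had 304, 268 and 286 CPM at day 3 and 532, 527 and 406 CPM at day 0. Atp6v1h, a regulatory subunit of the proton pump, had 159, 114 and 152 CPM at day 3 and 250, 243 and 228 CPM at day 0.

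RefSeq promoter sequences (GRCm38.p6, 250 bases before to 50 after each gene's start) were searched for the 7-letter E-box core TCACGTG, known from the element that TFEB and MITF bind at lysosomal genes, on both strands. It was found in promoters of 9 of 41 tested lysosomal enzyme genes with a sequence (22%), in 4 of 21 of the called ones (19%), in 9 of 26 genes of the lysosomal membrane and V-ATPase (34.6%), the list that did not move one way, and in 4.29% of all 27025 genes with a sequence. A match is a description of the letters and no evidence of binding. Ctsd has 3 matches, and the outermost is shown because Ctsd is the most abundant enzyme gene of the list at day 3. Capitals mark the E-box on the opposite strand at chr7:142388021-142388077, minus strand.
Ctsd: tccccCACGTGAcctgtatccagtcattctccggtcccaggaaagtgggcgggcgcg

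Of 21 tested iron and heme genes, 5 were called higher. Trf, which encodes the plasma iron carrier transferrin, had 306, 356 and 288 CPM at day 3 and 20.9, 19.9 and 35 CPM at day 0 (3.65 ± 0.24 log2 units, adjusted p = 8.9e-07). Ncoa4, the receptor that delivers ferritin to autophagy, had 201, 175 and 137 CPM at day 3 and 53.6, 34.9 and 78.3 CPM at day 0. Of 23 tested trophic factors, 7 were called higher and 1 lower. Hgf, hepatocyte growth factor, had 43.3, 64 and 38.8 CPM at day 3 and 6.87, 3.92 and 4.43 CPM at day 0. Igf1, insulin-like growth factor 1, had 1763, 1549 and 2421 CPM at day 3 and 880, 813 and 1052 CPM at day 0.

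Of 36 tested CDK regulators and p53 targets, 5 were called higher and 4 lower, with a median of -0.29 log2 units. The higher count was 3 without day 0 replicate 2 or day 3 replicate 1. The apoptosis regulators Bcl2l11 and Bcl2 moved in opposite directions. Bcl2l11, which encodes the pro-apoptotic protein BIM, had 207, 205 and 234 CPM at day 3 and 36.9, 22.5 and 45.1 CPM at day 0 (2.63 ± 0.23 log2 units, adjusted p = 8.3e-06). Bcl2, which encodes its anti-apoptotic partner, had 5.22, 2.85 and 3.6 CPM at day 3 and 25.8, 16.3 and 14.7 CPM at day 0. Ccnd2, the G1 cyclin D2, had 4.43, 4.79 and 7.2 CPM at day 3 and 20.1, 33.7 and 18.3 CPM at day 0. Of 37 tested mitosis genes 8 were called lower. Without day 0 replicate 3 or without day 3 replicate 3 there were none by edgeR, and 2 to 5 when any other library was dropped, the lowest of these on dropping day 3 replicate 2. At an unadjusted p below 0.05 there were 26 with all libraries, and by DESeq2 16.

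Inflammatory genes were counted by family. Of 33 tested NF-kB targets, 13 fell and 1 rose, while 8 of the 33 fitted changes were positive, with 8 falls without day 0 replicate 1 or without day 0 replicate 2. Nfkbia, the inhibitor that NF-kB induces against itself, had 44.9, 55.6 and 60.3 CPM at day 3 and 343, 343 and 213 CPM at day 0. Sod2, the mitochondrial superoxide dismutase, had 67, 57.5 and 70.1 CPM at day 3 and 134, 156 and 129 CPM at day 0. The 1 rise was Rel, a subunit of NF-kB itself (1.17 log2 units), which did not pass without both replicates 3 (adjusted p = 0.066). Tnf had 18, 14.3 and 13.5 CPM at day 3, against 165, 158 and 144 CPM at day 0.

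Chemokine genes of the CXC family moved both ways, with 2 of 7 called higher and 2 lower. Cxcl10, a ligand of activated T cells, had 23.5, 7.07 and 20.8 CPM at day 3 and 130, 126 and 194 CPM at day 0. Cxcl16, a membrane-bound chemokine that also binds oxidised lipid, had 94.5, 117 and 124 CPM at day 3 and 33.7, 20.3 and 16.5 CPM at day 0. Cxcl14 had 13.6, 20.5 and 5.17 CPM at day 3 and 1.48, 0.742 and 0.721 CPM at day 0. Of 10 tested CC ligands 4 were called lower, with 2 without day 0 replicate 3 and 1 without day 3 replicate 1 or replicate 2.

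Enzymes around itaconate and arginine were lower in 4 of 12 tested cases and higher in 1. Acod1, which makes itaconate in activated macrophages, lies at 14:103046977-103056573 (GRCm38) and had 10.2, 6.73 and 5.62 CPM at day 3 and 1342, 1193 and 790 CPM at day 0 (-7.19 ± 0.49 log2 units, adjusted p = 4.0e-06). Its place in the TPM order of tested genes was 7943 at day 3 and 67 at day 0. Slc7a1, the main arginine carrier, had 6.8, 6.73 and 7.76 CPM at day 3 and 83.2, 79.8 and 47.8 CPM at day 0. Sat1, which acetylates polyamines for export, was the rise, with 1966, 2014 and 1964 CPM at day 3 and 1033, 947 and 944 CPM at day 0.

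Of 40 tested interferon response genes, 7 were called lower, with 4 without day 3 replicate 1 and 14 without scaling factors, and 34 of the 40 fitted changes were negative. Oasl1, which inhibits translation of the transcription factor IRF7, had 33.5, 26.6 and 15.5 CPM at day 3 and 225, 239 and 221 CPM at day 0. Rsad2, which encodes the antiviral protein viperin, had 204, 139 and 203 CPM at day 3 and 591, 567 and 839 CPM at day 0. Lgals3bp was the 1 rise, with 1330, 1276 and 1173 CPM at day 3 and 782, 809 and 659 CPM at day 0; 2 members were called higher without day 0 replicate 3. Of 11 tested genes of MHC class II and its antigen processing, 1 was called higher (Ctss) and 2 lower. The class II gene H2-Aa had 0.0985, 0.114 and 0 CPM at day 3 and 22.2, 27.6 and 2.06 CPM at day 0, with day 0 replicate 3 far under the other two. Its counts summed to 2 at day 3 and 491 at day 0, a ratio of 239 towards day 0 (exact 95% interval 65.7 to 1976). The class I gene H2-D1, which has near-identical relatives that can split its reads, had 3107, 2642 and 3397 CPM at day 3 and 1937, 1905 and 1700 CPM at day 0.

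**Figure D4:**
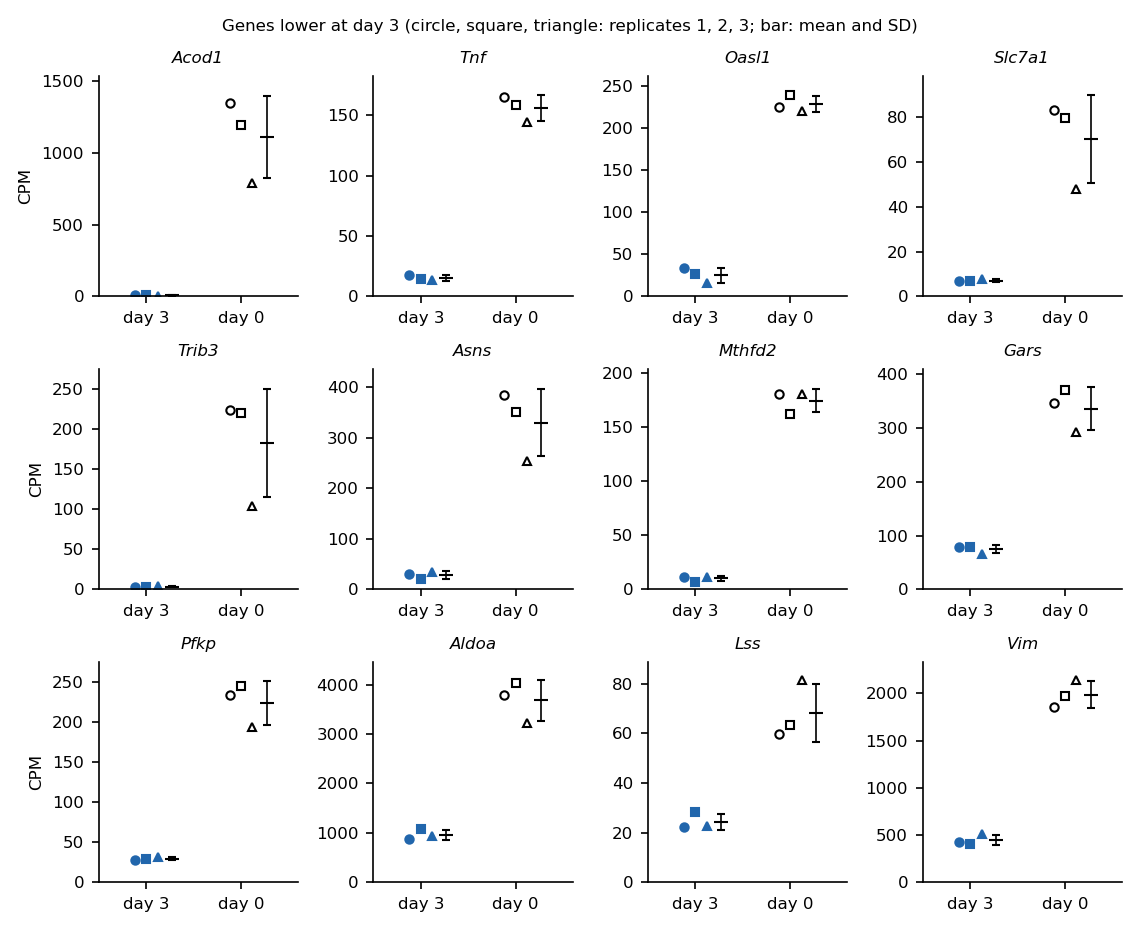
Each panel shows 1 gene that fell, with CPM on a linear y axis from 0 and the 3 day 3 libraries (filled) left of the 3 day 0 libraries (open); bars give the mean and SD. In all 12 panels, which were chosen after their values were seen, the highest day 3 library lies under the lowest day 0 library.

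The genes of ATF4 and of amino acid supply were counted next. ATF4 is made when kinases of the integrated stress response slow translation, and it switches on amino acid synthesis, amino acid transport and tRNA charging. Of 37 tested genes of ATF4 and the unfolded protein response, 19 fell (13 to 18 with any 1 library left out) and none rose by edgeR, at an unadjusted p below 0.05 or by DESeq2, with a median of -1.11. Atf4 itself had 91.4, 78.9 and 88 CPM at day 3 and 700, 679 and 499 CPM at day 0 (-2.86 ± 0.24 log2 units, adjusted p = 4.9e-06). Trib3, a pseudokinase that ATF4 induces, had 3.55, 3.42 and 3.82 CPM at day 3 and 223, 219 and 104 CPM at day 0. Asns, which makes asparagine, had 30.9, 19.7 and 34.6 CPM at day 3 and 384, 352 and 255 CPM at day 0. Herpud1, a factor of protein degradation at the endoplasmic reticulum, had 35.1, 34.1 and 32.2 CPM at day 3 and 173, 133 and 84.8 CPM at day 0.

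The tRNA synthetases, which charge tRNAs with amino acids, fell in 15 of 20 cases (14 or 15 with any 1 library left out). None rose by edgeR, at an unadjusted p below 0.05 or by DESeq2, all 20 fitted changes were negative and the median was -1.14. Gars, for glycine, had 78.7, 79.8 and 65.6 CPM at day 3 and 346, 370 and 293 CPM at day 0 (-2.17 ± 0.17 log2 units, adjusted p = 2.6e-06). Cars, for cysteine, had 33.4, 30.8 and 31.4 CPM at day 3 and 137, 145 and 116 CPM at day 0. Aars, for alanine, had 126, 111 and 97.8 CPM at day 3 and 370, 358 and 305 CPM at day 0. Day 0 replicate 3 was the lowest day 0 library for all 3, and still above every day 3 library.

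The promoters of both lists were searched for TGATGNAA, the composite letters known from genes that ATF4 binds together with C/EBP proteins, on both strands; the search in tRNA synthetases was added after their values were seen. Of 35 tested genes of the ATF4 list with a RefSeq sequence, 8 held it (22.9%), as did 5 of 18 called ones (27.8%). Of 13 tRNA synthetases with a sequence, 5 held it (38.5%), against 4.51% of all 27025 genes, and none of 12 serine and folate genes did. The sterol element TCACNCCAC was in 1 of 17 cholesterol genes and in 1.44% of all genes. No match says only that these letters are not in this window. The windows shown are from called genes that carry the letters, run 5' to 3' on the gene's strand, and carry the match in capitals. Asns is at chr6:7693210-7693277 (minus strand), Herpud1 at chr8:94386272-94386369 (plus), Trib3 at chr2:152344039-152344091 (minus), Gars at chr6:55037926-55038000 (plus) and Aars, which holds 2 matches, at chr8:111033685-111033782 (plus). The match lies 23 to 16 bases before the start in Asns and 30 to 23 before it in Gars. In Asns it is in the orientation as written, and in the other 4 it is the reverse complement.
Asns: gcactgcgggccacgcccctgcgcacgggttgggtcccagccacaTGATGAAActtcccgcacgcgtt
Herpud1: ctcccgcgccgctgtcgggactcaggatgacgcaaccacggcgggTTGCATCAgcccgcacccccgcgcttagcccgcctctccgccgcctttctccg
Trib3: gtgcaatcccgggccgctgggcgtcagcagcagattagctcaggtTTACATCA
Gars: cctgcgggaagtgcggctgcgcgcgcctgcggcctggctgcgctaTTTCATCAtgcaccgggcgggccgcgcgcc
Aars: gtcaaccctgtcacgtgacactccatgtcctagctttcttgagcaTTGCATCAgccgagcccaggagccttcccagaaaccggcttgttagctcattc

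Serine and one-carbon enzymes fell in 6 of 16 tested cases (5 or 6 with any 1 library left out) and rose in none by edgeR, at an unadjusted p below 0.05 or by DESeq2. Mthfd2, a mitochondrial folate enzyme, had 11.8, 7.07 and 11.6 CPM at day 3 and 181, 162 and 181 CPM at day 0 (-4.10 ± 0.27 log2 units, adjusted p = 8.9e-07). Shmt2, which splits serine to feed that enzyme, had 36.1, 29.1 and 26.9 CPM at day 3 and 142, 159 and 155 CPM at day 0. Psph, the last step of serine synthesis, had 7.78, 12 and 7.54 CPM at day 3 and 38.8, 36.4 and 44.1 CPM at day 0. These groups are several times apart and tight within themselves.

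Amino acid transporters were called lower in 7 of 23 tested cases and higher in 3. The lower count was 3 without day 0 replicate 1 and 4 without day 0 replicate 2, day 3 replicate 2 or day 3 replicate 3. Slc1a5, a glutamine carrier, had 18.7, 24.7 and 15.7 CPM at day 3 and 99.2, 94.4 and 51.6 CPM at day 0. Slc7a7, a carrier that exports cationic amino acids, went the other way, with 206, 160 and 212 CPM at day 3 and 35.2, 21.1 and 48.7 CPM at day 0. Slc7a8, a carrier of neutral amino acids, had 281, 343 and 207 CPM at day 3 and 123, 127 and 168 CPM at day 0.

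Glycolysis and hypoxia genes fell in 21 of 42 tested cases (20 to 23 with any 1 library left out), with a median of -1.50. The 1 rise, Pfkfb3, did not pass without day 0 replicate 1 or 2 (adjusted p = 0.098 and 0.056) or without day 3 replicate 1 or 2 (0.11 and 0.078). Pfkp, an isoform of phosphofructokinase, had 27.5, 29.4 and 31.4 CPM at day 3 and 233, 245 and 193 CPM at day 0 (-2.93 ± 0.24 log2 units, adjusted p = 4.0e-06). Pgk1, phosphoglycerate kinase, had 62.5, 89.3 and 57.7 CPM at day 3 and 383, 348 and 314 CPM at day 0. Slc2a1, the glucose transporter GLUT1, had 41.1, 62.3 and 29.5 CPM at day 3 and 236, 212 and 165 CPM at day 0. Genes of this pathway have processed pseudogenes, and reads that fit several places were not counted.

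Of 31 tested genes of the pentose phosphate pathway and of the oxidative stress factor NRF2, 10 fell and 1 rose. The falls numbered 6 without day 0 replicate 1, day 3 replicate 1 or day 3 replicate 2. Srxn1, which repairs oxidised peroxiredoxin, had 46.7, 29.5 and 67.5 CPM at day 3 and 324, 352 and 182 CPM at day 0. Gss, glutathione synthetase, had 16.8, 19.7 and 27.8 CPM at day 3 and 84.9, 86.9 and 48.7 CPM at day 0. Mgst1, a membrane glutathione transferase, was the rise, with 126, 88.8 and 201 CPM at day 3 and 31.3, 23.8 and 24.9 CPM at day 0.

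The TCA cycle list had 6 falls and 1 rise among 27 tested genes, with a median of -0.40 log2 units. There were 3 falls without day 0 replicate 1 or 2, and 2 without day 0 replicate 3 or day 3 replicate 1. The rise, Idh1, did not pass without day 0 replicate 1 or 2 (adjusted p = 0.082 and 0.11), without day 3 replicate 1 or 3 (0.057 and 0.084) or without scaling factors (0.072). Pdhb, a subunit of pyruvate dehydrogenase, had 83, 83 and 84.9 CPM at day 3 and 187, 209 and 133 CPM at day 0. Hspa9, the mitochondrial chaperone mortalin, is not a TCA cycle enzyme. It had 207, 216 and 217 CPM at day 3 and 1008, 819 and 536 CPM at day 0. Of 40 tested heat shock and proteasome genes, 9 were called lower and none higher, with a median of -0.53. The lower count was 5 without day 0 replicate 1 or 2, 4 without day 3 replicate 1 and 19 without scaling factors.

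Cytoskeletal genes were called lower in 8 of 36 tested cases, with 5 without day 0 replicate 1, 4 without day 0 replicate 2 or 3 or day 3 replicate 2, and 3 without day 3 replicate 1. Vim, the intermediate filament vimentin, had 429, 405 and 513 CPM at day 3 and 1851, 1970 and 2138 CPM at day 0. Tagln2, an actin-bundling protein, had 104, 104 and 113 CPM at day 3 and 498, 510 and 615 CPM at day 0. Marcks, an actin regulator under the membrane, was the 1 called higher (2 without day 0 replicate 2 or 3 or day 3 replicate 3), with 312, 337 and 424 CPM at day 3 and 196, 151 and 227 CPM at day 0. Of 26 tested integrins and adhesion genes, 6 were called higher and 3 lower (1 without day 0 replicate 1), with a median of 0.31. The rises included the integrin chains Itgal, Itga4 and Itga9, and the falls Itgb3, given above. Itgal, a chain of LFA-1, had 106, 127 and 99.6 CPM at day 3 and 38.6, 23.6 and 13.8 CPM at day 0, and Itga4, a chain of VLA-4, had 94.8, 70.2 and 83.2 CPM at day 3 and 18.6, 11.8 and 26.2 CPM at day 0.

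Many genes described for disease-associated microglia rose, while others did not pass the test. Of 25 tested, 13 were called higher and 1 lower, with 6 higher without day 0 replicate 2 and 8 without day 3 replicate 2. The 1 lower call, Lgals3, was lost without any 1 library other than day 3 replicate 3 (adjusted p = 0.08 to 0.16). Clec7a, a receptor for beta-glucans, had 955, 911 and 712 CPM at day 3 and 65.2, 76.2 and 91 CPM at day 0. Cybb, a subunit of the NADPH oxidase, had 1367, 1522 and 972 CPM at day 3 and 516, 501 and 358 CPM at day 0. Gpnmb and Spp1, both abundant, did not pass the test: Gpnmb, a membrane glycoprotein, had 10554, 11450 and 14388 CPM at day 3 and 10276, 9562 and 14928 CPM at day 0, and Spp1, osteopontin, had 9722, 13095 and 9277 CPM at day 3 and 11977, 10930 and 16973 CPM at day 0.

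Levels at days 6 and 12 place day 3 within the series. Mertk was highest at day 3, with means of 55.8, 356, 224 and 172 CPM at days 0, 3, 6 and 12. Clec7a averaged 77.4, 859, 354 and 136 CPM on the same days, and Hgf 5.07, 48.7, 19.1 and 8.8 CPM. Fcrls averaged 102, 1975, 2805 and 3455 CPM, so its day 3 mean was under those of the later days. Itgb5 averaged 41.6, 168, 234 and 212 CPM. Among the falls, Asns averaged 330, 28.4, 20.7 and 18.7 CPM, and Oasl1 229, 25.2, 12.3 and 8.51 CPM. Pkm averaged 2827, 905, 1119 and 1687 CPM. These later levels are given as values with no test.

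**Figure D5:**
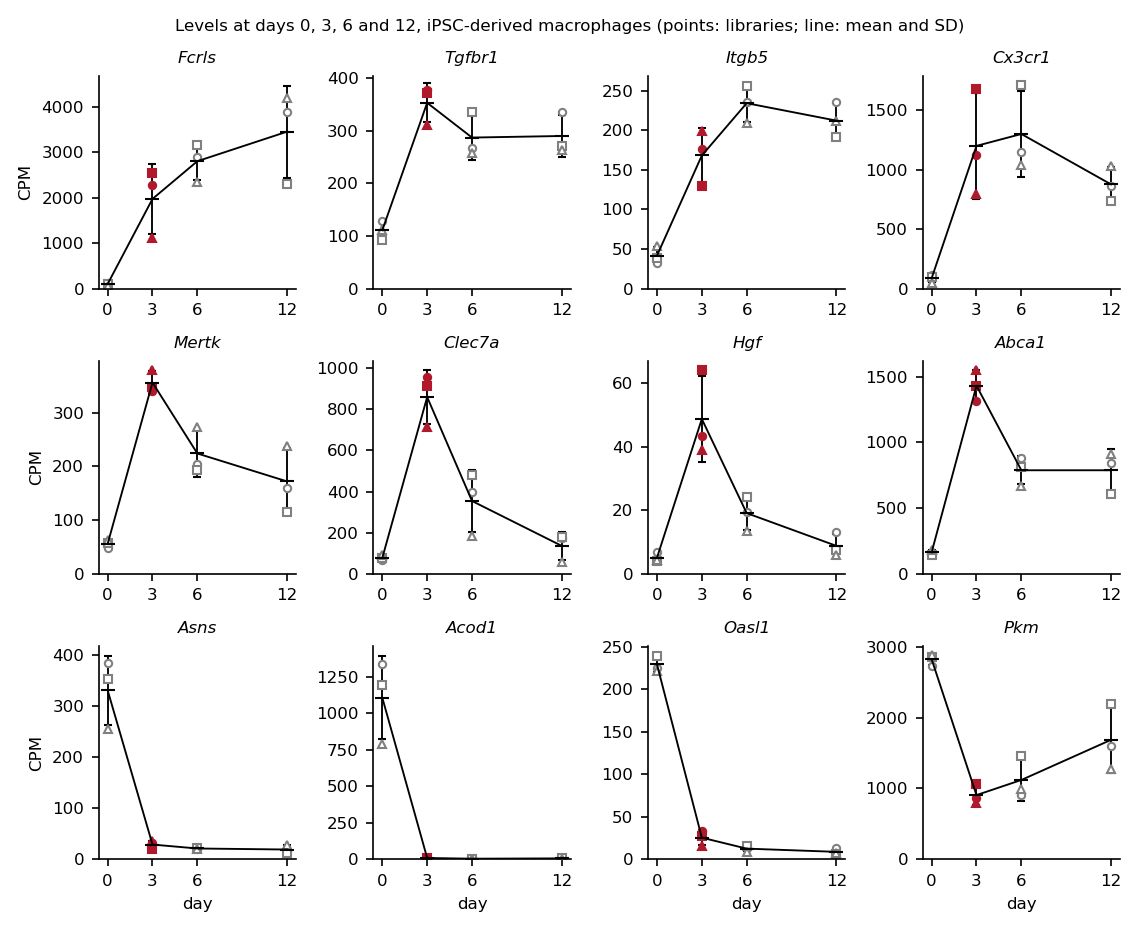
Each panel gives the CPM of 1 gene (linear y axis from 0) in iPSC-derived macrophages at days 0, 3, 6 and 12 (x axis), with 3 libraries a day as points (day 3 filled) and the mean and SD as a line with bars. Mertk, Clec7a, Hgf and Abca1 are highest at day 3 and lower afterwards, Fcrls goes on to higher means, and Asns, Acod1 and Oasl1 stay low after day 3; the 12 genes were chosen after their values were seen.

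Bone marrow-derived macrophages were sampled at the same 2 days, and the test of the difference asks which genes changed by different amounts in the cell sources. Of 15000 genes tested over all 24 libraries, 3075 (20.5%) changed differently, 1354 towards higher and 1721 towards lower values in iPSC-derived cells. Of the 24 genes chosen by the size of their change, 19 were among them, but that choice used the same iPSC-derived values and favours a difference. A difference in size does not make a change particular to iPSC-derived cells: Vnn3, Abcg1 and Fcrls rose in bone marrow-derived cells too, by 2.75, 1.01 and 0.76 log2 units (edgeR adjusted p = 6.7e-05, 0.024 and 0.042). Abcg1 had a log2 fold change of 4.88 in iPSC-derived cells and of 1.01 in bone marrow-derived cells, a difference of 3.87 ± 0.45 (SE; adjusted p = 1.8e-06). Hpgd changed by 4.29 log2 units in iPSC-derived cells and by -2.56 in bone marrow-derived cells. Phgdh, the first enzyme of serine synthesis, changed by -4.50 log2 units in iPSC-derived cells and by 2.46 in bone marrow-derived cells, a difference of -6.95 ± 0.68 (adjusted p = 1.1e-07). Kynu did not pass the test of a difference (0.49 ± 1.48 log2 units, adjusted p = 0.88), nor did Flt1, a VEGF receptor (1.63 ± 2.23, adjusted p = 0.68). Both standard errors are too wide to call the changes alike.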

How the data were processed

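RNA of the 24 libraries was amplified by SMART-seq v2 from total RNA, per the labels' protocols. Per the file headers, the authors counted read pairs over exons of GENCODE vM9 genes with featureCounts 1.5.0-p1, with no strand option, and left out reads with more than 1 mapping place. STAR and mm10/GRCm38 are named in the submitters' processing notes. The deposited values are raw counts for 47643 genes, of which 419 have no symbol in the tables used here (0.0635% of counts). Without strand, reads of a gene and of an antisense partner cannot be told apart. Counting error is the only error that intervals and floors (3 counts) cover.

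The main test was edgeR 4.0.16 (R 4.3.3, limma 3.58.1), a robust quasi-likelihood fit of the 12 iPSC-derived libraries with 1 coefficient per group, which share 1 estimate of the spread. Genes passed filterByExpr (minimum count 10, minimum total 15), libraries were scaled by TMM, and p-values were adjusted by Benjamini-Hochberg over all tested genes at 0.05. The difference between cell sources was fitted on all 24 libraries. SE is the absolute log2 fold change over the square root of F. TPM used the deposited gene lengths. Alternatives were DESeq2 1.42.0, other scalings, filters and sample sets, a replicate block, and leaving out each library; leaving out both replicates 3 was added after seeing the data. The fits were also run on simulated counts with known changes. That simulation did not copy the replicates that stood apart, and its outcome is not reported here. Tables and figures used Python 3.11.15, pandas 2.3.3, numpy 2.4.6, scipy 1.17.1 and matplotlib 3.10.9.

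Genes were named by a rule: the 12 largest called rises and falls with no overlap between the groups and at least 20 CPM in the higher group, the 8 largest gains and losses in TPM, up to 4 called members of each list with the lowest p and up to 2 that moved against the list, a set of fixed genes, and the most abundant markers of other cell types. Not every gene that the rule names is described. Dcx, Lgals3, and the panels of the figures were chosen after their values were seen. The genes and lists were chosen with earlier results of these data known. Promoters are RefSeq's, GRCm38.p6. Some members of the lists are counted but not reported by name here.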

Additional observations from a re-analysis of the deposited data

Results flagged for a closer look

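For 19 of the 24 genes chosen by the size of their change, the change from day 0 to day 3 differed between iPSC-derived and bone marrow-derived macrophages in edgeR's test of the difference over all 24 libraries. The genes were chosen on the same iPSC-derived values, which favours a difference. Each value is a difference of log2 fold changes, the iPSC-derived one minus the bone marrow-derived one. Among genes that rose in iPSC-derived cells, it was 7.97 for Vnn3, 13.03 for Bmp2, 5.97 for Cdo1 and 3.87 for Abcg1. It was 5.15 for Dkk2, 6.86 for Hpgd, 3.53 for Fcrls and 3.95 for Plxdc2.

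Among genes that fell in iPSC-derived cells, the difference was -18.59 for Aqp9, -10.85 for Cxcl2, -11.83 for Acod1, -10.37 for Clec4e and -10.07 for Trib3. It was -8.27 for Chac1, -7.99 for Cadps, -5.19 for Ccl2, -6.54 for Tnfsf9, -6.95 for Phgdh and -10.26 for Gem. Where a group has no count, as for Vnn3 and Aqp9, the fitted value depends on the prior count and is no bound.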

How the results depend on the processing

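The 1844 calls (1086 higher, 758 lower) became 2907 (1686 and 1221) with all 24 libraries in the fit, 344 (235 and 109) when tested against a log2 fold change of 1, and 911 (548 and 363) at an adjusted p below 0.01. DESeq2 gave 1493 higher and 947 lower. Without scaling factors 1248 genes were lower. With 1 library left out, calls ranged from 1156 to 1639 in all, 711 to 1021 higher and 436 to 618 lower. Same-numbered replicates of the 2 groups had correlations of their deviations of -0.060, 0.026 and 0.001. These values show no pairing by number, but with 3 libraries a group they cannot exclude it. A replicate block gave 1096 higher and 792 lower, and 3055 genes in place of 3075 for the difference between cell sources. That count ranged from 2565 to 3023 with 1 library left out. The genes that changed sign were all uncalled. Without both replicates 3, Arg1 was 0.58, Clu 0.23, Lyve1 0.02, Nes 0.09 and Spi1 0.23. Arg1 was 0.53 with the block, and Gpnmb -0.12 without scaling. With 1 of the 6 libraries left out, the ranges were -1.12 to 0.45 for Arg1, -0.31 to 0.22 for Clu, -0.07 to 0.32 for Gpnmb, -0.61 to 0.01 for Nes and -0.52 to 0.15 for Spi1. For the difference between cell sources, Spsb1 was -0.00 with no filter and -0.27 without scaling. With 1 library left out, it ranged from -1.02 to 0.58 for Spsb1, -0.33 to 6.08 for Npnt, -0.81 to 1.04 for Kynu and -1.58 to 0.90 for Car6. The cause was not tested. The biological coefficient of variation was 0.388 with 3 libraries a group, and it and the depth limit the precision.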
